A study of Homo sapiens with 27 samples.

Results

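The signalling route from cytokine receptors that share gp130 to the transcription factor STAT3 was followed through 10 genes in 2 invasive lobular breast carcinoma (ILC) cell lines, before and after long-term estrogen deprivation (LTED). The genes were taken by name: the receptor subunits IL6R, LIFR, OSMR and IL6ST (which encodes gp130), the kinases JAK1 and JAK2, STAT3 itself, and SOCS3, CISH and PIM1, which lie downstream. This choice was made with earlier results of these data known, so counts of changed genes among the 10 are no independent test. Their Ensembl identifiers were matched to GENCODE symbols, and all 10 were found among the 60619 genes of the count table and passed the filter on low counts in every comparison. They are described in all 9 groups of samples.

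Cytokines of the interleukin-6 family bind receptor subunits that pair with the common subunit gp130. Some of these subunits, such as LIFR, serve several cytokines. Janus kinases (JAKs) attached to the receptor then phosphorylate STAT proteins, chiefly STAT3, which move to the nucleus and switch on target genes. Some of those targets are inhibitors that close the loop: SOCS3 binds gp130 and the JAKs, and CISH is best known for restraining STAT5 downstream of prolactin and growth hormone receptors. In breast epithelium the pathway is known for driving involution after lactation, through leukemia inhibitory factor and its receptor LIFR.

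MM134 (MDA-MB-134VI) and SUM44 are established estrogen receptor-positive human cell lines derived from lobular carcinoma. The MM134 parental cells, and the parental cultures SUM44PE and SUM44F, were deprived of hormone for 3 days in medium with charcoal-stripped serum before RNA was collected. SUM44F was derived from SUM44PE by a change of culture medium and served as the parental culture of the SUM44 variants. The LTED variants of MM134 (A, B, D and E) and of SUM44 (A and B) had grown out of parental cells over months in the stripped serum and were kept in it, so the time spent in culture differed together with LTED and cannot be told apart from it. Each group had 3 libraries from culture wells, so that p-values measure the spread between wells, and each variant is 1 independently derived population. The variants of a line were compared with the same 3 parental libraries, and SUM44PE with the SUM44F libraries that also served the SUM44 variants.

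Total estimated counts ranged from 28583554 to 134882175 per library, with a median of 44018412. In SUM44 LTED-A, replicates 2 and 3 differed by less than counting error alone would give (chi-square per degree of freedom 0.312, against 2.35 to 58.1 in the 26 other pairs within groups) and were counted as 1 sample, which left 26 samples. All 8 luminal epithelial markers examined were detected in every group, with a summed level (CPM, normalised counts scaled to library size) of 5638 to 5703 CPM in MM134 parental cells, 8780 to 9918 CPM in the MM134 variants and 6606 to 9814 CPM in the SUM44 groups. KRT8 and XBP1 rose in all 4 MM134 variants. ESR1, the estrogen receptor gene, fell in MM134 LTED-A (log2 fold change -1.27), and GATA3 fell in MM134 LTED-A and LTED-E. In SUM44, ESR1, GATA3 and XBP1 rose in both variants, and KRT8 fell in LTED-B. Of 12 markers of immune, stromal and endothelial cells, the summed level was 23.0 to 31.2 CPM in MM134 parental cells, 13.7 to 27.3 CPM in the MM134 variants, where LYZ rose and COL1A1 fell in all 4, 21.7 to 22.9 CPM in SUM44PE and 8.41 to 13.3 CPM in the SUM44 LTED samples. PECAM1 rose in MM134 LTED-A, LTED-D and LTED-E. In SUM44 it fell in both variants (log2 fold changes between -3.70 and -2.90) and was also lower in SUM44PE than in SUM44F. SUM44F replicate 1 stood apart at 215 CPM, of which COL1A1 gave 85.9 CPM, while the other SUM44F samples had 40.8 and 34.7 CPM. The T cell marker CD3E reached at most 7 counts in any sample. Leaving out SUM44F replicate 1 moved the log2 fold change of SOCS3 by up to 0.23 over the 5 comparisons that used it and those of the other 9 genes by at most 0.07, and it changed 1 call, that of SOCS3 in SUM44 LTED-B. The part of the marker RNA in any result was not tested, and in these bulk samples fewer cells of a type and less RNA per cell cannot be told apart.

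Promoter sequences of all 10 genes were available from RefSeq (GRCh38.p14), as 18 windows of 250 bases before to 50 bases after an annotated start. The letters TTCNNNGAA, the core of sites bound by STAT proteins, read the same on both strands and occurred in 3 of these windows, belonging to CISH and LIFR. The SOCS3 windows, chr17:78359618-78359917 and chr17:78360876-78361175, did not cover the GENCODE start of SOCS3 at 78360077. The bases directly before that start were therefore not searched. Of all 35116 RefSeq promoter windows of this length, 7.66% held the letters at least once and 7 windows held them 4 times or more. CISH was among those 7. The 250 bases before the CISH start are shown because they carry all 4 matches, in capitals, and because CISH rose in 4 of the 6 variants. They lay on the minus strand at chr3:50611775-50612024.
CISH: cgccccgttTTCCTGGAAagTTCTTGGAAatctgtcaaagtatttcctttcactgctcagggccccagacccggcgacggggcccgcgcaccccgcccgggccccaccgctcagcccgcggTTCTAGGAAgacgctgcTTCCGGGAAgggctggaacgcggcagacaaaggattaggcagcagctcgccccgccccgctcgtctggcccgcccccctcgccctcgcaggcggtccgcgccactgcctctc
The matches began 241, 230, 129 and 112 bases before the start. LIFR fell in all 6 variants. None of its 3 windows covered the GENCODE start of LIFR at 38608354, so the bases directly before that start were not searched. LIFR had 1 match in 2 of its 3 windows, at chr5:38557468-38557717 and chr5:38595406-38595655 on the minus strand, again in capitals.
LIFR window 1: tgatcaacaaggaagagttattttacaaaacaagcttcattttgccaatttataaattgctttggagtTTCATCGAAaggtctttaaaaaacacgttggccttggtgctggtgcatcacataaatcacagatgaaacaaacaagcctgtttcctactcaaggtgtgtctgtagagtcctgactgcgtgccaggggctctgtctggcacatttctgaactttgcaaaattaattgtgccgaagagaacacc
LIFR window 2: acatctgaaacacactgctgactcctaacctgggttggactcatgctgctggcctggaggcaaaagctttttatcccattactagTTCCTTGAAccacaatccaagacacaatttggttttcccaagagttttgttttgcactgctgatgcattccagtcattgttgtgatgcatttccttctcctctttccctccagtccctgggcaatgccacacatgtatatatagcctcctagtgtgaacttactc
The STAT3 promoter, shown because STAT3 moved in opposite directions in the 2 cell lines, had no match to these letters in its window. It lay at chr17:42388443-42388692 on the minus strand.
STAT3: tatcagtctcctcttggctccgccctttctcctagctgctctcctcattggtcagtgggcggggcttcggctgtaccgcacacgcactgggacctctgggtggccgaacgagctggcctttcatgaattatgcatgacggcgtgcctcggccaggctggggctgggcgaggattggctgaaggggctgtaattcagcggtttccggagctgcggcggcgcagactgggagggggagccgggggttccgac
The consensus palindromic estrogen response element, searched on both strands, occurred in 0 of the 18 windows and in 0.0570% of all windows. A match describes the letters only.

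With levels set per length, in CPM per kilobase of exon, IL6ST was the most abundant of the 10 genes in every group, between 65.5 in SUM44F and 154 in SUM44 LTED-B. STAT3 ranged from 7.20 to 21.0 and JAK1 from 4.89 to 22.8 CPM per kilobase, while JAK2 reached at most 3.47. In MM134, the receptor subunits IL6R, LIFR and OSMR were at most 5.64 CPM per kilobase. LIFR was the most abundant of these 3 in SUM44F, at 10.6, and IL6R in SUM44 LTED-B, at 7.79. Over the 9 groups the mean CPM of LIFR spanned 258-fold, OSMR 67.9-fold and SOCS3 44.1-fold, and those of the other 7 genes between 2.04-fold for IL6R and 8.02-fold for CISH.

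**Figure D1:**
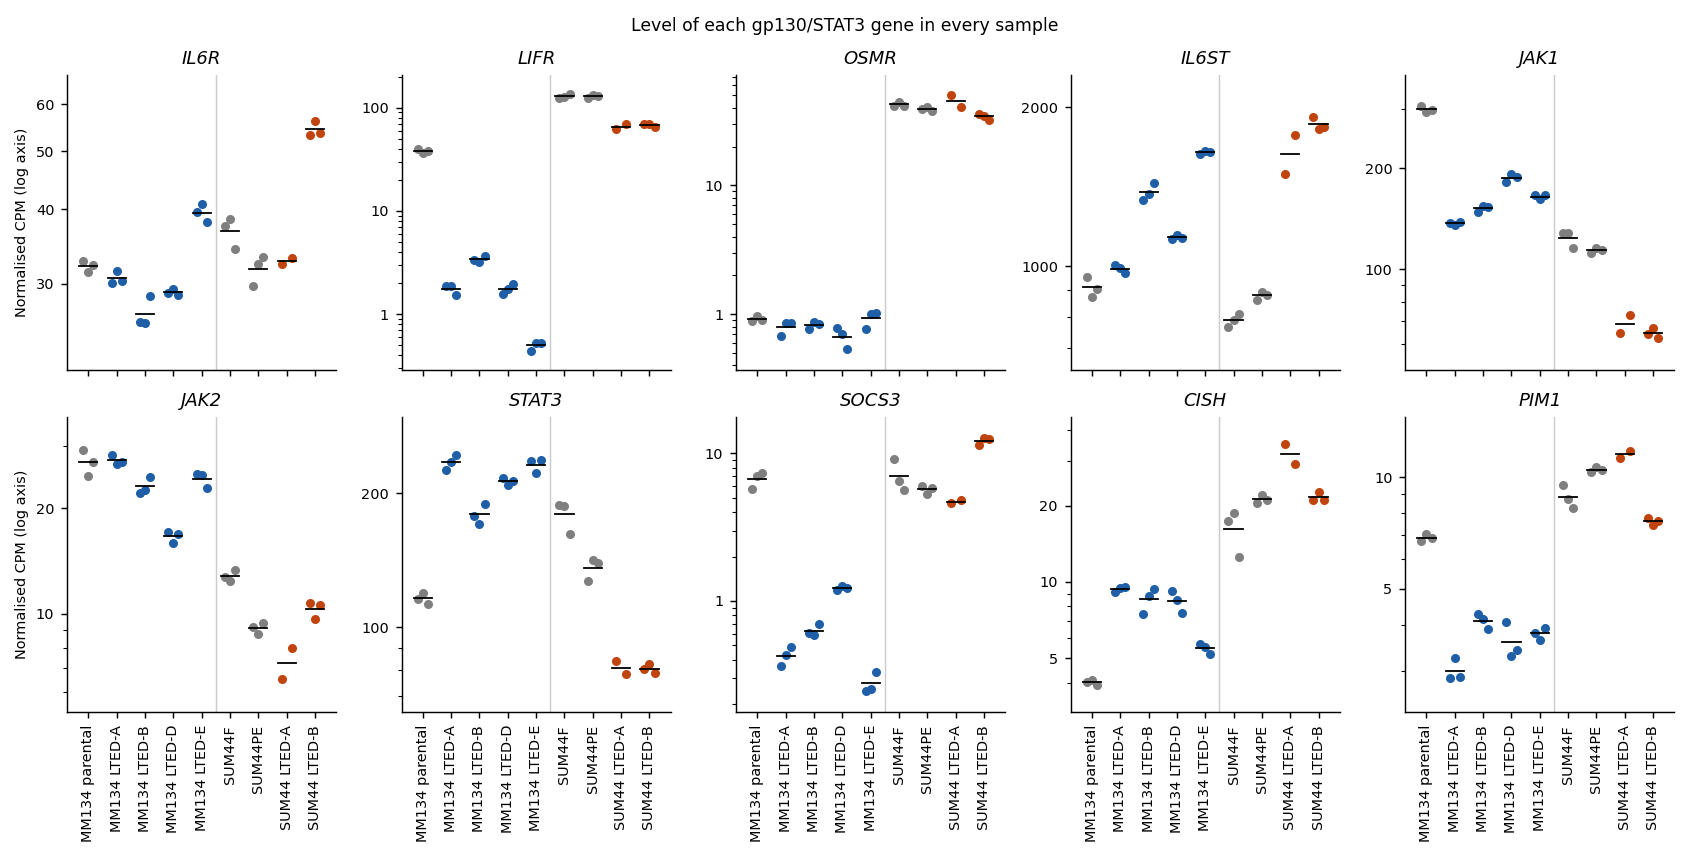
Normalised CPM (log axis) of each gene in every sample, by group; points are samples, black lines group means, grey marks parental cells, blue MM134 variants and orange SUM44 variants (n = 3, or 2 for SUM44 LTED-A). LIFR and SOCS3 lie far below the parental level in all MM134 variants, OSMR separates the cell lines, and STAT3 lies above the parental level in MM134 and below it in SUM44.

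A gene was called differentially expressed (DE) when its change exceeded 1.5-fold and its adjusted p was below 0.001 (edgeR quasi-likelihood F-test, Benjamini-Hochberg adjustment over all genes tested). In MM134 LTED-A, 6 of the 10 genes were DE, 2 higher and 4 lower, where 20.3% of the 26061 genes tested were DE, 10.5% higher and 9.82% lower. In LTED-B, 7 genes were DE, 3 higher and 4 lower, where 15.9% of all genes were DE, 8.11% higher and 7.75% lower. In LTED-D, 7 genes were DE, 2 higher and 5 lower, where 17.6% of all genes were, 9.63% higher and 7.95% lower. In LTED-E, 6 genes were DE, 2 higher and 4 lower, where 19.0% of all genes were, 8.71% higher and 10.3% lower. In SUM44 LTED-A, 6 genes were DE, 2 higher and 4 lower, where 13.7% of the 26834 genes tested were DE, 6.39% higher and 7.28% lower. In SUM44 LTED-B, 4 genes were DE, 1 higher and 3 lower, where 17.3% were, 8.69% higher and 8.57% lower. DESeq2 called 6 genes there, adding IL6R and SOCS3 as higher, and gave the same number as edgeR in the other 5 variants. The shares of all genes called by DESeq2 are not given here, so its counts have no background beside them. The median log2 fold change of the 10 genes was -0.16, -0.24, -0.56 and -0.06 in MM134 variants A, B, D and E and -0.37 and -0.27 in SUM44 variants A and B. The median of all genes tested lay between -0.09 and 0.02 in these 6 comparisons. LIFR and JAK1 were lower in all 6 variants, and STAT3 was DE in all 6 but in opposite directions.

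**Figure D2:**
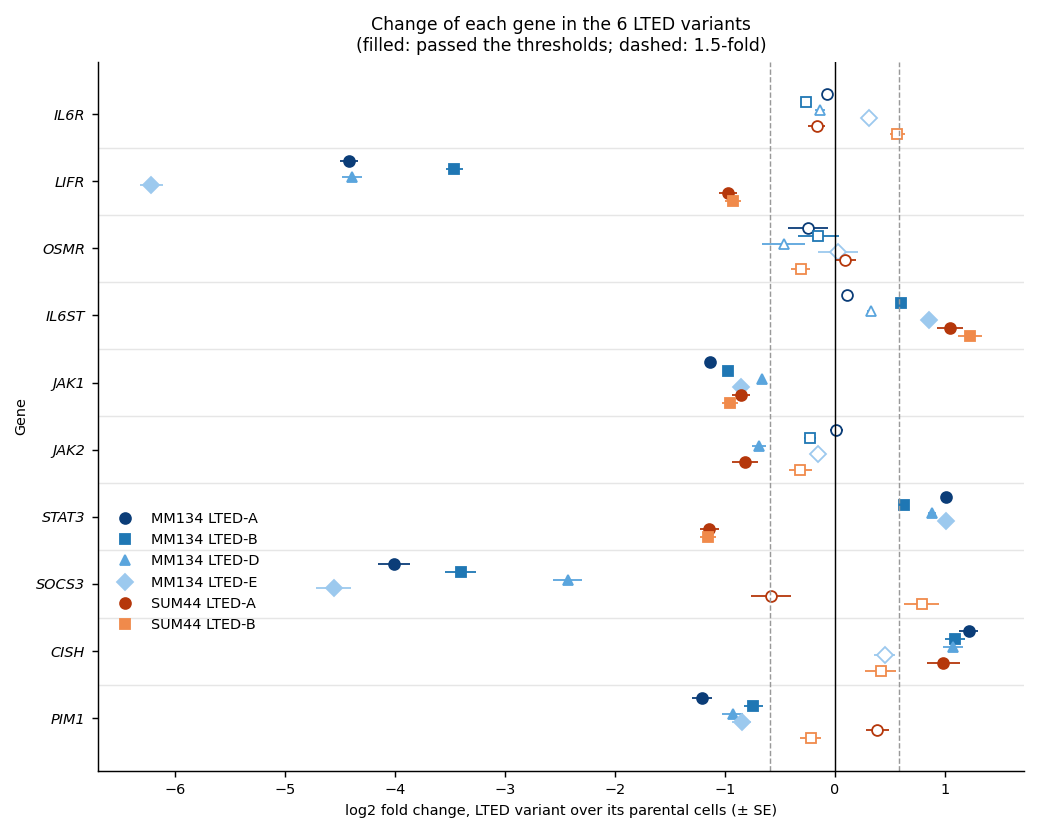
Log2 fold change (± SE) of each gene in the 6 LTED variants over parental cells; filled symbols passed the DE thresholds, open symbols did not, and dashed lines mark 1.5-fold. LIFR and SOCS3 have the largest decreases in MM134, JAK1 lies between -1.13 and -0.66 in all 6 variants, and the STAT3 symbols of the cell lines lie on opposite sides of 0.

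Among the receptor subunits other than gp130, LIFR changed most. LIFR (ENSG00000113594, chr5:38474668-38608354, minus strand) encodes the receptor for leukemia inhibitory factor and, with gp130, also serves oncostatin M. It stood at 39.7, 36.2 and 38.0 CPM in MM134 parental cells and at 1.88, 1.88 and 1.54 CPM in variant A, 3.39, 3.21 and 3.71 CPM in variant B, 1.58, 1.77 and 1.97 CPM in variant D and 0.445, 0.530 and 0.525 CPM in variant E. No MM134 LTED sample came near the parental level, and the lowest libraries held 18 to 27 reads of LIFR. The decrease was 21.4-fold, 11.02-fold, 21.0-fold and 74.6-fold, or log2 fold changes of -4.42 ± 0.083, -3.46 ± 0.080, -4.39 ± 0.089 and -6.22 ± 0.10 (SE), with adjusted p-values of 2.0e-18, 7.2e-17, 1.0e-17 and 4.1e-19. SUM44 cells began higher, at 123, 128 and 137 CPM in SUM44F, and ended at 61.9 and 69.2 CPM in variant A and 69.7, 69.3 and 65.2 CPM in variant B. The groups did not overlap, and LIFR fell 1.97-fold and 1.90-fold (log2 fold changes -0.98 ± 0.082 and -0.93 ± 0.072, adjusted p = 6.4e-06 and 2.8e-06; -1.01 and -0.96 without SUM44F replicate 1). In the order of all 9 groups, MM134 LTED-A and LTED-D overlapped, as did the SUM44 LTED groups and the 2 parental SUM44 cultures, while all other neighbours were separate. The antisense transcript LIFR-AS1, which overlaps LIFR on the other strand, also had lower values, with log2 fold changes of -2.94, -2.40, -2.57 and -3.08 in the MM134 variants and -0.68 and -0.90 in the SUM44 variants. The library kit kept the strand, but whether the counting used it is not given in the sources used here.

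OSMR (ENSG00000145623, chr5:38845858-38945596, plus strand), the oncostatin M receptor subunit, marked the difference between the cell lines. The 15 MM134 samples lay between 0.534 and 1.03 CPM, with 23 to 67 reads per library. SUM44F samples had 41.6, 44.4 and 41.7 CPM, SUM44PE 39.3, 40.5 and 38.2 CPM, LTED-A 50.3 and 40.7 CPM and LTED-B 36.0, 34.9 and 32.1 CPM. No variant was called: log2 fold changes lay between -0.47 and 0.03 in MM134 and were 0.10 ± 0.097 and -0.31 ± 0.088 in SUM44. OSMR overlaps RICTOR on the opposite strand, which reached 98.4 CPM. IL6R (ENSG00000160712, chr1:154405193-154469450, plus strand), which binds interleukin-6 itself, varied less. It stood at 32.7, 31.3 and 32.2 CPM in MM134 parental cells and at means between 26.7 CPM in LTED-B and 39.4 CPM in LTED-E, none of them a 1.5-fold change. In SUM44F it stood at 37.5, 38.5 and 34.2 CPM, in LTED-A at 32.3 and 33.1 CPM and in LTED-B at 53.3, 56.3 and 53.8 CPM. The LTED-B samples lay above all other samples of either line, yet at 1.48-fold (log2 fold change 0.57 ± 0.067, adjusted p = 5.9e-05) the change stayed under the 1.5-fold limit. It passed that limit without SUM44F replicate 2 (0.61) or without SUM44 LTED-A replicate 1 (0.59), and also by DESeq2 (0.60), with RLE size factors (0.60) and with SUM44PE in the fit (0.59).

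IL6ST (ENSG00000134352, chr5:55935095-55995022, minus strand) encodes gp130, through which every cytokine of the family signals. It stood at 955, 872 and 907 CPM in MM134 parental cells, and at 1004, 994 and 969 CPM in variant A, 1334, 1373 and 1438 CPM in variant B, 1127, 1146 and 1130.1 CPM in variant D and 1633, 1655 and 1644 CPM in variant E. All LTED samples lay above the parental samples, but the size differed between variants. The gene rose 1.82-fold in LTED-E and 1.52-fold in LTED-B (log2 fold changes 0.86 ± 0.032 and 0.60 ± 0.032, adjusted p = 5.2e-14 and 1.3e-11). The LTED-B value was at the limit, and it fell under 1.5-fold without MM134 parental replicate 2 (0.57) or LTED-B replicate 3 (0.58). In LTED-D and LTED-A the log2 fold changes of 0.33 and 0.11 were under the limit. In SUM44 the rise was 2.07-fold and 2.35-fold, from 766, 792 and 811 CPM in SUM44F to 1494 and 1773 CPM in variant A and 1918, 1821 and 1833 CPM in variant B (log2 fold changes 1.05 ± 0.12 and 1.23 ± 0.11, adjusted p = 5.6e-05 and 7.5e-06; 1.03 and 1.21 without SUM44F replicate 1). SUM44F was thus the lowest and SUM44 LTED-B the highest of the 9 groups, and SUM44 LTED-A overlapped MM134 LTED-E.

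JAK1 (ENSG00000162434, chr1:64833223-65067754, minus strand), the kinase on which gp130 signalling mainly depends, fell in all 6 variants by similar amounts. From 306, 295 and 298 CPM in MM134 parental cells it went to 138, 135.3 and 139 CPM in variant A, 148, 155 and 154 CPM in variant B, 182, 192 and 188 CPM in variant D and 167, 162 and 166 CPM in variant E. Parental and LTED samples did not overlap, and the decrease was 2.19-fold, 1.963-fold, 1.58-fold and 1.81-fold (log2 fold changes -1.13, -0.97, -0.66 and -0.85, each with an SE of 0.026, adjusted p between 4.2e-17 and 1.6e-13). SUM44F samples had 128, 129 and 116 CPM, LTED-A 64.5 and 73.2 CPM and LTED-B 64.1, 66.8 and 62.5 CPM, a decrease of 1.80-fold and 1.93-fold (log2 fold changes -0.85 ± 0.083 and -0.95 ± 0.073, adjusted p = 1.9e-05 and 2.7e-06; -0.83 and -0.93 without SUM44F replicate 1). Every MM134 group had a higher JAK1 level than every SUM44 group.

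JAK2 (ENSG00000096968, chr9:4984390-5129948, plus strand), a second kinase of these receptors, was called in 1 variant of each line. In MM134 it stood at 29.4, 24.7 and 27.1 CPM in parental cells and fell in LTED-D, to 17.1, 15.9 and 16.9 CPM (1.61-fold, log2 fold change -0.69 ± 0.061, adjusted p = 1.8e-08). The means of LTED-A, LTED-B and LTED-E were 27.4, 23.1 and 24.2 CPM, and LTED-A and LTED-E overlapped the parental samples. LTED-B lay below them without passing the thresholds (log2 fold change -0.23, adjusted p = 0.0034). In SUM44 it stood at 12.7, 12.4 and 13.3 CPM in SUM44F, 6.50 and 7.97 CPM in variant A and 10.8, 9.64 and 10.6 CPM in variant B. The LTED-A decrease was 1.76-fold (log2 fold change -0.82 ± 0.12, adjusted p = 3.3e-04). This call was lost in 5 of the 8 fits that left out 1 sample, namely without SUM44F replicate 2 or 3, LTED-A replicate 1 or LTED-B replicate 1 or 3, with log2 fold changes of -0.98 to -0.64 over all 8. For LTED-B the log2 fold change was -0.31 ± 0.10 (adjusted p = 0.031), and the difference between the SUM44 variants was not called (0.51 ± 0.12, adjusted p = 0.010).

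STAT3 (ENSG00000168610, chr17:42313324-42388540, minus strand), the transcription factor at the end of the route, changed in opposite directions in the 2 cell lines. In MM134 it rose from 116, 119 and 113 CPM in parental cells to 226, 235 and 244 CPM in variant A, 177, 171 and 189.7 CPM in variant B, 216, 209 and 213 CPM in variant D and 236, 223 and 237 CPM in variant E. All 12 LTED samples lay above all 3 parental samples. The rise was 2.02-fold, 1.55-fold, 1.85-fold and 2.01-fold (log2 fold changes 1.01 ± 0.037, 0.63 ± 0.038, 0.89 ± 0.038 and 1.01 ± 0.037, adjusted p between 4.2e-14 and 6.7e-11). In SUM44 it fell from 189, 187 and 162 CPM in SUM44F to 83.9 and 78.5 CPM in variant A and 80.6, 82.7 and 78.7 CPM in variant B. No LTED sample reached the lowest SUM44F sample, and the decrease was 2.21-fold and 2.22-fold (log2 fold changes -1.14 ± 0.087 and -1.15 ± 0.076, adjusted p = 3.1e-06 and 8.3e-07; -1.11 and -1.12 without SUM44F replicate 1). Of the 9 groups the SUM44 variants were thus the lowest, overlapping each other, and MM134 LTED-A and LTED-E the highest, also overlapping. MM134 LTED-B and SUM44F overlapped in the middle of the order.

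SOCS3 (ENSG00000184557, chr17:78356778-78360077, minus strand) encodes the main feedback inhibitor of gp130 and is itself a STAT3 target. Its level in MM134 parental cells was 5.75, 7.04 and 7.35 CPM, and in the variants 0.361, 0.427 and 0.484 CPM (LTED-A), 0.603, 0.590 and 0.697 CPM (LTED-B), 1.19, 1.26 and 1.23 CPM (LTED-D) and 0.247, 0.254 and 0.330 CPM (LTED-E). Each MM134 LTED library held 10 to 53 reads of SOCS3, against 201 to 261 in the parental libraries, and the groups were far apart. SOCS3 fell 16.1-fold, 10.6-fold, 5.40-fold and 23.6-fold (log2 fold changes -4.01 ± 0.14, -3.40 ± 0.14, -2.43 ± 0.13 and -4.56 ± 0.16, adjusted p between 2.2e-14 and 1.8e-11). SOCS3 fell in the same 4 variants in which STAT3 rose. In SUM44 no change was called by edgeR: SUM44F samples had 9.09, 6.50 and 5.65 CPM, LTED-A 4.62 and 4.81 CPM and LTED-B 11.4, 12.6 and 12.6 CPM. The log2 fold changes were -0.58 ± 0.18 (adjusted p = 0.030) and 0.79 ± 0.16 (adjusted p = 0.0022). The highest of the SUM44F values belonged to replicate 1, the sample with the high stromal markers. Without it the LTED-A value was -0.36 (adjusted p = 0.066), and LTED-B was called higher at 1.01 (adjusted p = 1.0e-04). With all samples, LTED-B was also called higher by DESeq2 (0.83), without the filter on low counts (0.81) and with SUM44PE in the fit (0.81).

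CISH (ENSG00000114737, chr3:50606489-50611774, minus strand), a further member of the SOCS family, moved the other way from SOCS3 in MM134. From 4.004, 4.10 and 3.92 CPM in parental cells it rose to 9.14, 9.47 and 9.56 CPM in variant A, 7.47, 8.79 and 9.35 CPM in variant B and 9.20, 8.51 and 7.53 CPM in variant D, or 2.33-fold, 2.13-fold and 2.11-fold (log2 fold changes 1.22 ± 0.088, 1.09 ± 0.091 and 1.08 ± 0.092, adjusted p between 8.5e-10 and 1.0e-08). LTED-E samples, at 5.66, 5.53 and 5.19 CPM, also lay above the parental samples, but by 1.37-fold, under the limit. In SUM44F it stood at 17.5, 18.7 and 12.5 CPM, in LTED-A at 35.1 and 29.2 CPM and in LTED-B at 21.2, 22.7 and 21.0 CPM. The rise in LTED-A was 1.98-fold (log2 fold change 0.99 ± 0.15, adjusted p = 4.7e-04). It was lost in 5 of the 8 fits that left out 1 sample, without either LTED-A sample or any 1 LTED-B sample, with adjusted p-values up to 0.0068 and log2 fold changes of 0.85 to 1.12 over all 8. In LTED-B the log2 fold change was 0.42 ± 0.14 (adjusted p = 0.030). The start of CISH lies within MAPKAPK3, a gene of up to 22.5 CPM on the opposite strand, whose log2 fold changes were between -0.20 and 0.38.

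PIM1 (ENSG00000137193, chr6:37170152-37175428, plus strand), a serine/threonine kinase gene induced by STAT proteins, fell in the 4 MM134 variants. Parental cells had 6.75, 7.04 and 6.84 CPM, LTED-A 2.87, 3.25 and 2.88 CPM, LTED-B 4.27, 4.13 and 3.91 CPM, LTED-D 4.07, 3.28 and 3.41 CPM and LTED-E 3.80, 3.64 and 3.93 CPM. All 12 LTED samples were below the parental ones, with decreases of 2.31-fold, 1.67-fold, 1.91-fold and 1.80-fold (log2 fold changes -1.21 ± 0.089, -0.74 ± 0.090, -0.93 ± 0.093 and -0.85 ± 0.090, adjusted p between 1.2e-09 and 1.3e-06). In SUM44 it was not called: SUM44F had 9.53, 8.73 and 8.28 CPM, LTED-A 11.3 and 11.8 CPM and LTED-B 7.74, 7.44 and 7.62 CPM, with log2 fold changes of 0.39 ± 0.10 (adjusted p = 0.014) and -0.22 ± 0.095 (adjusted p = 0.085).

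Whether the variants of a line differed from each other was tested directly. Among the 4 MM134 variants, 5 of the 10 genes differed, where 19.6% of all genes tested did. These were LIFR, with 6.77-fold between LTED-B and LTED-E, SOCS3, with 4.37-fold between LTED-D and LTED-E, CISH with 1.70-fold, IL6ST with 1.68-fold and JAK2 with 1.63-fold (adjusted p between 2.5e-12 and 1.3e-06). LTED-E had the lowest LIFR, SOCS3 and CISH and the highest IL6ST of the 4. IL6R differed by 1.48-fold, which passed the 1.5-fold limit without LTED-B replicate 3 or LTED-E replicate 3 (log2 0.62 and 0.60). STAT3, JAK1, PIM1 and OSMR differed by 1.30-fold, 1.38-fold, 1.38-fold and 1.41-fold. Between SUM44 LTED-B and LTED-A, 2 genes differed, where 7.42% of all genes did, 3.86% higher and 3.56% lower in LTED-B: IL6R was 1.66-fold and SOCS3 2.59-fold higher in LTED-B (log2 differences 0.73 ± 0.076 and 1.37 ± 0.19, adjusted p = 5.9e-05 and 3.6e-04). The SOCS3 call was lost when any 1 of the 5 LTED samples was left out (1.32 to 1.42), and the IL6R call without LTED-A replicate 1 (0.69). CISH was called, at -0.59, without SUM44F replicate 3. PIM1 was 1.52-fold lower in LTED-B but missed the p threshold (log2 -0.61, adjusted p = 0.0017). It was called by DESeq2, which called 3 genes in all, with at least 10 counts in every sample and with the LTED-A replicates kept separate. The share of all genes that DESeq2 called in this comparison is not given here. For STAT3 the difference between the SUM44 variants was -0.01 ± 0.084.

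Of the parental SUM44 cultures, SUM44PE and SUM44F, none of the 10 genes differed by the DE thresholds (edgeR), where 5.57% of the 27457 genes tested did, 2.85% higher and 2.72% lower. At an unadjusted p under 0.05, 5 genes passed, namely STAT3, JAK2, IL6R, CISH and PIM1, and DESeq2 called 0. The shares of all genes at that cut and by DESeq2 are not given here, so these counts have no background beside them. The largest differences were those of JAK2, at 9.14, 8.76 and 9.40 CPM in SUM44PE (log2 -0.50 ± 0.096, adjusted p = 0.0020), and of STAT3, at 127, 141 and 139.5 CPM (log2 -0.41 ± 0.071, adjusted p = 0.0011). SUM44PE samples lay below all SUM44F samples for both genes. LIFR and SOCS3 overlapped between the cultures.

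The change with LTED was then compared between the lines, by subtracting the mean log2 change of the 2 SUM44 variants from that of the 4 MM134 variants. Of the 10 genes, 5 differed, 1 higher and 4 lower, where 20.9% of the 29200 genes tested did, 10.8% higher and 10.2% lower. STAT3 was higher in this contrast, by 2.02 ± 0.061 on the log2 scale (adjusted p = 2.2e-17), with mean changes of 0.88 in MM134 and -1.15 in SUM44. SOCS3 had mean changes of -3.60 and 0.11 (difference -3.72 ± 0.17, adjusted p = 4.7e-14), LIFR of -4.62 and -0.95 (-3.68 ± 0.086, adjusted p = 2.6e-19) and PIM1 of -0.93 and 0.08 (-1.02 ± 0.098, adjusted p = 1.1e-08). IL6ST had mean changes of 0.48 and 1.14 (-0.67 ± 0.069, adjusted p = 3.1e-08). For JAK1 the means were -0.91 and -0.90, with a difference of -0.01 ± 0.056 (adjusted p = 0.88), and for CISH 0.96 and 0.70, with a difference of 0.25 ± 0.14 (adjusted p = 0.16). The 5 calls held without SUM44F replicate 1, with values of 1.98 for STAT3, -3.95 for SOCS3, -3.66 for LIFR, -1.09 for PIM1 and -0.66 for IL6ST.

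**Figure D3:**
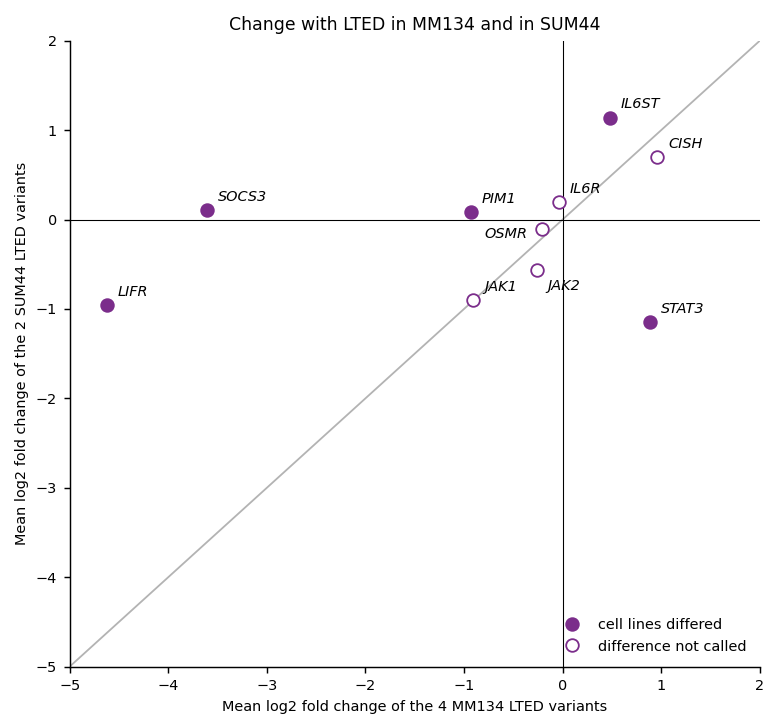
Mean log2 fold change of each gene in the 4 MM134 variants (x axis) and the 2 SUM44 variants (y axis); filled points differed between the lines, and the grey line marks equal change. STAT3 lies alone in the corner of higher in MM134 (0.88) and lower in SUM44 (-1.15), JAK1 lies on the line, and SOCS3 and LIFR lie far to the left.

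Before LTED, the lines already differed in these genes: 6 of the 10 differed between MM134 parental cells and SUM44F, 2 higher and 4 lower in MM134, where 38.1% of all genes did, 18.9% higher and 19.2% lower. OSMR was 46.5-fold, CISH 4.08-fold, LIFR 3.45-fold and STAT3 1.56-fold lower in MM134 (log2 differences -5.54 ± 0.11, -2.03 ± 0.12, -1.79 ± 0.066 and -0.64 ± 0.050, adjusted p between 8.9e-21 and 9.3e-13 for the first 3 and 1.3e-10 for STAT3). JAK1 was 2.38-fold and JAK2 2.08-fold higher (log2 1.25 ± 0.047 and 1.06 ± 0.076). For SOCS3 the log2 difference was -0.09 ± 0.14, or 0.13 without SUM44F replicate 1 and 0.03 without MM134 parental replicate 1.

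Other genes of the route, and genes of related cytokine signalling, were taken from lists written for this purpose. Those lists, too, were chosen with earlier results of these data known, so their counts of DE genes are no independent test. Of 10 ligand genes of gp130 receptors, 7 passed the filter on low counts in MM134 and 8 in SUM44. DE ligands numbered 3, 2, 2 and 2 in MM134 variants A, B, D and E and 1 and 1 in SUM44, against shares of all genes of 20.3%, 15.9%, 17.6%, 19.0%, 13.7% and 17.3%. No ligand was called in the same direction in 3 MM134 variants or in both SUM44 variants. Interleukin-6 and oncostatin M transcripts had group means of at most 0.0182 and 0.0606 CPM. LIF, a ligand of LIFR, was named after its values were seen. Its mean was 0.986 CPM in MM134 LTED-E against 0.0378 CPM in parental cells. In SUM44 LTED-A it was 0.0721 CPM against 0.601 CPM in SUM44F. No fold or p-value is given, since LIF was picked for these values and the lower group of each pair held few or no reads. Of 8 other receptor subunits, which include receptors outside the gp130 group such as PRLR, 7 were tested in each line. PRLR, the prolactin receptor, fell in 3 MM134 variants (log2 fold changes -0.98 to -0.73 there and -0.52 in LTED-B), from a parental mean of 651 ± 19.4 CPM (SD, n = 3) to 349, 451, 389 and 328 CPM in variants A, B, D and E. IL31RA, the interleukin-31 receptor that lies beside IL6ST on chromosome 5, fell in both SUM44 variants, from 2.39, 1.91 and 1.41 CPM in SUM44F to at most 0.0614 CPM. For these variants IL31RA passed the filter on low counts only through SUM44F, so no p-value is given for them. It was also lower in SUM44PE than in SUM44F, at 0.542, 0.401 and 0.428 CPM (adjusted p = 8.2e-04). Of the 8 other JAK and STAT genes, at most 1 was DE in any of the 6 variants.

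Among 14 other inhibitors of the route, SOCS6 rose in all 4 MM134 variants, from 78.2, 76.4 and 81.2 CPM in parental cells to means of 225, 167, 236 and 173 CPM in variants A, B, D and E (log2 fold changes 1.51, 1.09, 1.60 and 1.145). In SUM44, SOCS2, another inhibitor that STAT5 is known to induce, rose from 19.2, 18.2 and 18.4 CPM to means of 54.8 and 70.6 CPM (log2 fold changes 1.56 and 1.92). PTPN1, a phosphatase that acts on JAK2, rose from a mean of 62.1 CPM to 154 and 109 CPM (1.31 and 0.81). SOCS1, an inhibitor that binds the JAKs, fell in both SUM44 variants, from a mean of 1.53 CPM to 0.517 and 0.353 CPM (-1.57 and -2.10). In all, 2, 1, 3 and 2 of the 14 inhibitors were DE in MM134 variants A, B, D and E and 3 in each SUM44 variant, where 20.3%, 15.9%, 17.6%, 19.0%, 13.7% and 17.3% of all genes were, with medians between -0.14 and 0.28.

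Of 20 genes known as STAT3 targets in other cells, 10 rose and 3 fell in MM134 LTED-A, 5 rose and 4 fell in LTED-B, 7 rose and 3 fell in LTED-D and 6 rose and 3 fell in LTED-E. In SUM44 LTED-A 5 rose and 4 fell, and in LTED-B 6 rose and 4 fell. Of all genes tested, 10.5% rose and 9.82% fell in MM134 LTED-A, 8.11% and 7.75% in LTED-B, 9.63% and 7.95% in LTED-D and 8.71% and 10.3% in LTED-E. The shares were 6.39% and 7.28% in SUM44 LTED-A and 8.69% and 8.57% in LTED-B. The median log2 fold change of the 20 genes was 0.60, 0.21, 0.13 and 0.13 in MM134 and 0.37 and 0.21 in SUM44, against -0.01, 0.02, -0.03, 0.02, -0.06 and -0.09 over all genes. CEBPD, a transcription factor of the acute phase response, rose in all 4 MM134 variants, from 2.43, 2.91 and 2.72 CPM to means of 17.96, 5.92, 9.67 and 31.4 CPM (log2 fold changes 1.14 to 3.55). SERPINA3, a secreted protease inhibitor, rose in LTED-A, LTED-B and LTED-D, from a mean of 9.66 CPM to 28.4, 53.3 and 78.3 CPM, while LTED-E had 5.88 CPM. The interleukin-4 receptor gene IL4R rose in all 4, from 7.02 CPM to between 11.4 and 20.6 CPM. TIMP1, an inhibitor of metalloproteinases, fell in all 6 variants: from 11.5, 11.3 and 12.3 CPM in MM134 parental cells to group means of 0.0258 to 0.972 CPM, and from 72.2, 69.6 and 51.5 CPM in SUM44F to 9.70 and 13.8 CPM (log2 fold changes -2.73 and -2.23). FOS, an immediate early transcription factor, also fell in all 6 (log2 fold changes -1.90 to -1.29 in MM134 and -2.05 and -2.21 in SUM44). In SUM44, LRG1, a secreted glycoprotein of the acute phase, fell from 22.6, 20.4 and 18.4 CPM to 2.45 and 6.39 CPM, and CCND1, which encodes cyclin D1, rose from a mean of 469.5 CPM to 1625 and 1473 CPM (log2 fold changes 1.79 and 1.65). Without LTED, SUM44PE differed from SUM44F in the same direction for CCND1 (log2 0.70) and TIMP1 (-1.26), both DE.

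**Figure D4:**
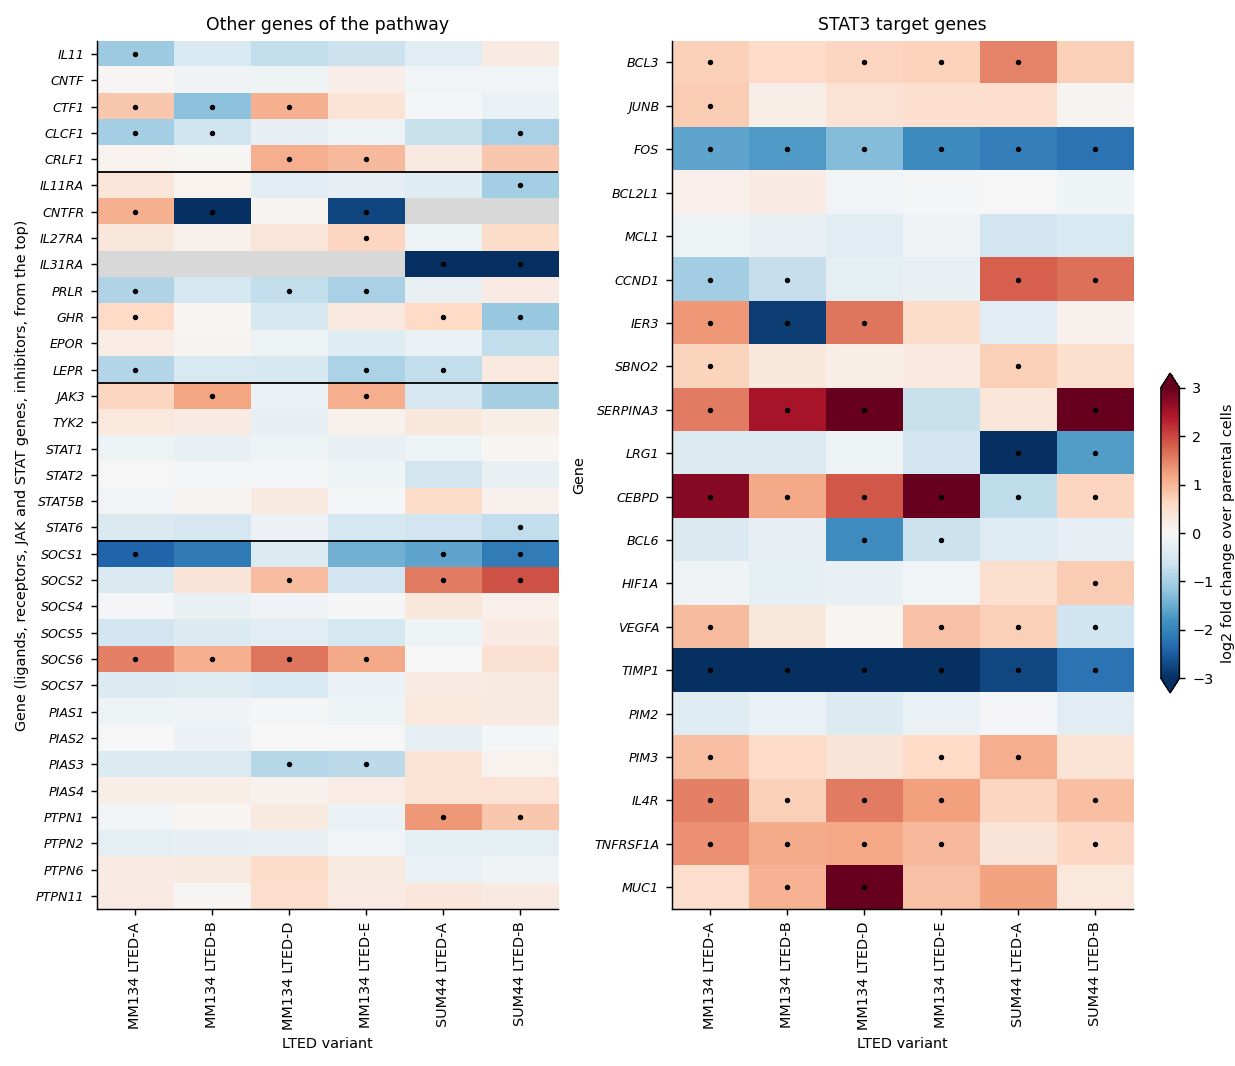
Log2 fold change over parental cells (color, limited to ±3) of the other genes of the route and of related signalling with a group mean of at least 1 CPM, in the 6 LTED variants. Dots mark DE genes and grey cells genes not tested. SOCS6 is higher in all MM134 variants, SOCS2 and PTPN1 in both SUM44 variants, and FOS and TIMP1 are lower in all 6 columns.

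Among 12235 protein-coding genes, those whose mean log2 CPM followed STAT3 most closely over the 9 groups were ENY2, GM2A and CAB39 (Pearson r = 0.978, 0.974 and 0.958). For IL6ST they were NSDHL, H2AC7 and GINS1 (0.946, 0.932 and 0.931), and for SOCS3 FHDC1, BNIP2 and SLC6A6 (0.982, 0.980 and 0.975). These r values describe 9 points that come from 2 cell lines, and with ranks in place of values 0, 0 and 1 of the 3 named genes stayed among the nearest 3.

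The genes next to each locus, 5 on each side, were read for the same comparisons. They were taken among genes with a group mean of at least 1 CPM. Of all genes tested, 9.82%, 7.75%, 7.95% and 10.3% fell in MM134 variants A, B, D and E. The shares that rose there were 10.5%, 8.11%, 9.63% and 8.71%. In SUM44 variants A and B, 7.28% and 8.57% fell and 6.39% and 8.69% rose. Of the neighbours of STAT3, at most 2 were DE in any variant, with medians between -0.11 and 0.20. JAK1, which fell in all 6 variants, had 4, 3, 3 and 4 neighbours that fell in MM134 and 2, 1, 1 and 0 that rose. In SUM44 variants A and B, 2 neighbours of JAK1 fell in each, and 0 and 1 rose. Around LIFR, 3, 1, 2 and 3 neighbours fell in the MM134 variants and 1, 1, 1 and 0 rose. In each SUM44 variant, 2 neighbours of LIFR fell and 1 rose. Around OSMR, which was not called, 3 to 5 neighbours fell in every variant and at most 1 rose. These loci share neighbours on chromosome 5. Around SOCS3, 1 neighbour fell in each MM134 variant, and 1, 1, 1 and 2 rose. In SUM44 variants A and B, 3 and 6 neighbours of SOCS3 rose, and 1 and 0 fell. The divergent transcript SOCS3-DT had log2 fold changes of -2.11, -2.01, -1.74 and -1.67 in MM134 and of 0.59 and 0.53 in SUM44. For CISH, IL6R, IL6ST, JAK2 and PIM1, at most 4 neighbours moved in 1 direction in any variant.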

How the data were processed

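RNA was sequenced as total RNA (TruSeq Stranded Total RNA kit) in 27 libraries of 9 groups. Per the labels, the authors quantified reads with Salmon 0.6.0 against Ensembl 82 (hg38) and deposited estimated counts per gene without normalisation. Counts were rounded to whole numbers. Symbols, coordinates and exon lengths came from GENCODE v44, which held 56434 of the 60619 gene identifiers. Replicates 2 and 3 of SUM44 LTED-A were averaged, since they differed by less than sampling noise, and 26 samples remained.

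edgeR 4.0.16 was used in R 4.3.3: filterByExpr, TMM normalisation and the two-sided quasi-likelihood F-test, with Benjamini-Hochberg adjustment over all genes tested and the study's thresholds of 1.5-fold and an adjusted p of 0.001. Separate fits were made for MM134, for SUM44F with its 2 variants, for all SUM44 groups (SUM44PE against SUM44F) and for all groups but SUM44PE (differences between lines). For the MM134 variants one F-test covered all 4, and the fold is that of the highest over the lowest. Standard errors (SE) were derived from the F statistic, and SD is between samples. Levels are CPM with TMM factors over all 26 samples. DESeq2 1.42.0, other filters, scalings, thinned counts, a replicate block and the removal of each sample in turn were tried as alternatives. On simulated counts with 200 genes changed 2-fold, the fit for MM134 LTED-A recovered 93.5% of them over 25383 genes, and that for SUM44 LTED-A 49.5%. The changed genes were drawn only from those with higher mean counts, so recovery at low counts, such as those of OSMR in MM134, was not measured.

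All 10 genes are named. Other list genes are named where they were DE in the same direction in at least 3 MM134 variants or both SUM44 variants with a group mean of at least 1 CPM, up to 5 per list and line. The 10 genes and the lists were chosen with earlier results of these data known.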

Additional observations from a re-analysis of the deposited data

Results flagged for a closer look

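The change with LTED differed between the cell lines for 5 of the 10 genes, by a test of the difference itself (the mean log2 fold change of 4 MM134 variants less that of 2 SUM44 variants, edgeR, adjusted over 29200 genes). The difference was 2.02 for STAT3, which rose in 4 of 4 MM134 variants and fell in 2 of 2 SUM44 variants. It was -3.68 for LIFR and -3.72 for SOCS3. For PIM1 it was -1.02 and for IL6ST -0.67. All 5 differences stayed past the thresholds when any 1 sample was left out.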

How the results depend on the processing

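Over the 10 genes and 11 comparisons, 763 of 780 values under other processing and 1518 of 1560 values with 1 sample left out kept their direction and their side of the thresholds. No called gene changed direction. Signs turned for genes that were not called: LIFR in SUM44PE without a filter on low counts (0.0033), JAK2 in MM134 LTED-A with at least 10 counts in every sample (-0.0033), and, for the difference between lines, JAK1 with that filter (0.031) or thinned counts (0.0030) and OSMR with thinned counts (0.030). With 1 sample left out, log2 values ranged from -0.093 to 0.040 for JAK1 and the difference between lines, -0.23 to 0.13 for SOCS3 between parental lines, -0.050 to 0.078 for JAK2 in MM134 LTED-A, -0.043 to 0.15 for OSMR in MM134 LTED-E, -0.016 to 0.24 for OSMR in SUM44 LTED-A and -0.044 to 0.061 for LIFR in SUM44PE. Between the SUM44 variants they ranged from -0.048 to 0.14 for LIFR, -0.049 to 0.016 for STAT3 and -0.21 to 0.0057 for JAK1. A minimum fold of 2 left 3 called genes in each of MM134 variants B, D and E, 2 in each SUM44 variant, 2 among the MM134 variants and 1 between the SUM44 variants, and with no minimum fold 8 differed among the MM134 variants. Thinned counts left 1 gene that differed between the SUM44 variants, and leaving out 1 sample 0 to 3. The shares of all genes at these other thresholds and settings are not given here, so these counts have no background beside them. Replicate numbers did not pair the samples (same-number correlations of -0.10 to 0.07 in MM134 and -0.07 to 0.18 in SUM44). With the replicate block 5 genes were called in SUM44 LTED-A, where JAK2 was lost (-0.79), and STAT3 between the SUM44 variants was 0.034. The causes were not tested.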
